A study of Homo sapiens with 12 samples.

Results

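The 51 genes described here encode the machinery that copies DNA and part of the enzymes that supply its nucleotides. They were chosen by name from the gene table, which listed 32077 genes, and were sorted into 9 roles: origin licensing (5 genes), the MCM helicase (7), helicase activation (8), the sliding clamp and its loader (6), polymerases and primase (9), single strand binding and Okazaki joining (5), fork protection (3), nucleotide supply (4) and chromatin and histone supply (4). The rule used no measured value, although the list was drawn up with earlier results of these data known. All 51 passed the filter on low counts in every comparison.

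RNA was sequenced from PC3 and DU145, a pair of long-established human lines of androgen-independent prostate cancer. Cells of each line were given 2.5 µM pentamidine, an antiprotozoal drug, or vehicle, and RNA was taken at 48 h. Each of the 4 groups held 3 samples (12 altogether), and the labels do not say whether the 3 came from separate cultures, so that the p-values measure only the spread between these samples. Nothing else was stated to differ between the groups of a line. Total counts lay between 13514195 and 15131436 per sample, and no sample was left out.

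The libraries were checked against markers of their label. KRT18, a keratin of simple epithelia, was at 144 to 208 CPM (counts scaled to a common library size after TMM normalization) in the PC3 samples and at 685 to 941 in the DU145 samples. KRT8, another epithelial keratin, was low in the PC3 samples, at 16.1 to 21.4 CPM, and at 1817 to 2795 CPM in the DU145 samples. EPCAM and CDH1, which code for adhesion proteins of epithelial cells, were at or near 0, with at most 2 and 10 counts in any sample. PC3 and DU145 stand below for the libraries so labelled. PTPRC and DCN, markers of blood cells and fibroblasts, had at most 1 count in any sample. Of the other fibroblast markers looked at, COL1A2 had at most 2 counts in any sample. COL1A1 had 3 to 12 counts in the PC3 samples and 25 to 40 in the DU145 samples, at most 2.98 CPM. Mitochondria-encoded genes took 3.79 to 3.91% of counts in PC3 vehicle samples and 2.66 to 2.76% after pentamidine, and 4.41 to 4.66% and 1.97 to 2.07% in DU145. With normalization factors computed without them, every count of members given below was the same or 1 gene apart.

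Before S phase, the origin recognition complex with CDC6 and CDT1 loads the ring of MCM proteins onto DNA, and geminin (GMNN) holds CDT1 back once replication has begun. CDC7 kinase with its activator DBF4, MCM10, CDC45 and the GINS complex turn the loaded ring into a working helicase, after which polymerase alpha with primase lays down primers and polymerases delta and epsilon extend them on the PCNA clamp. Genes of this programme are transcribed in step with the cell cycle, largely under E2F transcription factors, and their mRNA is most abundant around the entry into S phase. In bulk RNA, a smaller share of cells in S phase cannot be told apart from less mRNA in each such cell.

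Promoters were read from RefSeq on GRCh38.p14, from 250 bases before to 50 bases after each annotated start of a gene. Where a gene had several windows, the highest number of matches in any 1 of them was taken, for each sequence searched. Genes with more windows thus had more chances of a match. A window was found for 45 members, and MCM4, MCM5, GINS4, POLD3, RPA2 and RPA3 had no entry. The windows were searched on both strands for the E2F consensus, written as the words TTTCCCGC, TTTCGCGC, TTTGCCGC and TTTGGCGC. At least 1 match lay in 23 of the 45 members (51.1%), against 4.01% of 27195 genes with a window and 6.96% of the 9509 that were also tested in PC3. Counted by position, 2 or more matches were found in 6 members (13.3%), in 0.18% of all genes and in 0.326% of those also tested in PC3. Words on opposite strands may overlap by 4 bases and are then counted separately, so that in MCM2 and TIPIN 2 matches form 1 stretch. All 5 members of the MCM helicase group with a window held a match. The CCAAT box (CCAAT, both strands, whether or not it touches an E2F word) lay in 28 members (62.2%), 39.7% of all genes and 43.8% of those also tested in PC3. A match describes letters in a window and is not evidence of a bound site.

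The windows of the 4 helicase genes with 2 or more matches, of CLSPN (1 match, among the largest changes) and of POLD2 (no match, the smallest change) are shown to give the words in their place. They run 5′ to 3′ on the strand of the gene, end 30 bases after the start, and carry the E2F words in capitals. MCM7 had 3 windows, of which that with the most matches is shown. The coordinates on GRCh38.p14 are chr3:127598161-127598440 (plus strand) for MCM2, chr6:52284713-52284992 (minus strand) for MCM3, chr2:135876414-135876693 (minus strand) for MCM6, chr7:100101368-100101647 (minus strand) for MCM7, chr1:35769949-35770228 (minus strand) for CLSPN and chr7:44123519-44123798 (minus strand) for POLD2.
MCM2: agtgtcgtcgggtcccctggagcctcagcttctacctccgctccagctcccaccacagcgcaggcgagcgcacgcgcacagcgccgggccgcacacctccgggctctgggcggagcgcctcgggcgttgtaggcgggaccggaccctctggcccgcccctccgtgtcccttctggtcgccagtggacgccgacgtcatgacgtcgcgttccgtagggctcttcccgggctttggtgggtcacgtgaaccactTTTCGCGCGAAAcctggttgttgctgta
MCM3: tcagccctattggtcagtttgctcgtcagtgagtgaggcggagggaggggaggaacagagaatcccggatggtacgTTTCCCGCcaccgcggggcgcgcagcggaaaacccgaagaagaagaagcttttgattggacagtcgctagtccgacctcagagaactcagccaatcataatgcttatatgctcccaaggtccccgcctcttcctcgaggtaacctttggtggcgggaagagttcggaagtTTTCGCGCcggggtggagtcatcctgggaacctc
MCM6: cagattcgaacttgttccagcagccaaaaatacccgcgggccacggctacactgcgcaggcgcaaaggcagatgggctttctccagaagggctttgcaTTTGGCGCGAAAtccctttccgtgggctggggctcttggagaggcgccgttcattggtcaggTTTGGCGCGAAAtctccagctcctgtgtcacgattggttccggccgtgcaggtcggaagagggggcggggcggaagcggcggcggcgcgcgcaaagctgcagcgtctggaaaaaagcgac
MCM7: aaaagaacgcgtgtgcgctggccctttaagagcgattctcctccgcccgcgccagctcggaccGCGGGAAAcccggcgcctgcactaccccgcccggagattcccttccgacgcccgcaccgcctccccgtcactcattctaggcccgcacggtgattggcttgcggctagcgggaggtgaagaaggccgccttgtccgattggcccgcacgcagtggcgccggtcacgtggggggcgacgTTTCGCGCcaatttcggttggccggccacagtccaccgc
CLSPN: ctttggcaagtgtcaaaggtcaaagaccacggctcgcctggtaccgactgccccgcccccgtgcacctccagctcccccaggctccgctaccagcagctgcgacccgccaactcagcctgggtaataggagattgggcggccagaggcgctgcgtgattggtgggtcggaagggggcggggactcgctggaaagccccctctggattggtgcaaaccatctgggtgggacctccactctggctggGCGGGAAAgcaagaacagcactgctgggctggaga
POLD2: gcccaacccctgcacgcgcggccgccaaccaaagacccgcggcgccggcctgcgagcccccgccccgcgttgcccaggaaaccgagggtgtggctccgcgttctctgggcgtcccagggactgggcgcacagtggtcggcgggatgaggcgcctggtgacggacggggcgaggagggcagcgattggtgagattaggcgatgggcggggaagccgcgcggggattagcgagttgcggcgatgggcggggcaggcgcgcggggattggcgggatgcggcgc
In MCM2 the 2 words overlap and begin 2 and 6 bases after the start, and in MCM6 4 words form 2 separate stretches. In CLSPN the word begins 5 bases before the start. In MCM3 and MCM7 1 word lies within 10 bases of the start and the other far upstream.

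To learn how replication genes responded in each line, pentamidine and vehicle were compared within the line by edgeR's quasi-likelihood test over all genes tested, and a member was called changed at a Benjamini-Hochberg adjusted p below 0.05. In PC3 cells all 51 members fell, against 21.7% of the 13861 genes tested and 29.8% of genes at or above the level of the lowest member. Their median log2 fold change was -0.66 (to 0.635 of the vehicle level), while that of all genes tested was 0.0046, and 5.03% of genes were at or below the members' median. The treated and vehicle samples did not overlap in any of the 51, treated samples being the lower, as in 26.1% of all genes tested. In DU145 cells 18 members fell (16.8% of 14313 genes tested did, and 28.6% of genes at or above the lowest member's level) and 3 rose (17.2% of genes tested). The other 30 did not pass, and their 95% intervals lay between -0.27 and 0.21. The DU145 median was -0.09 against 0.01 for all genes tested, and 32.6% of genes lay at or below it. Treated samples lay below all vehicle samples for 23 members in DU145, as for 22.1% of genes tested.

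**Figure D1:**
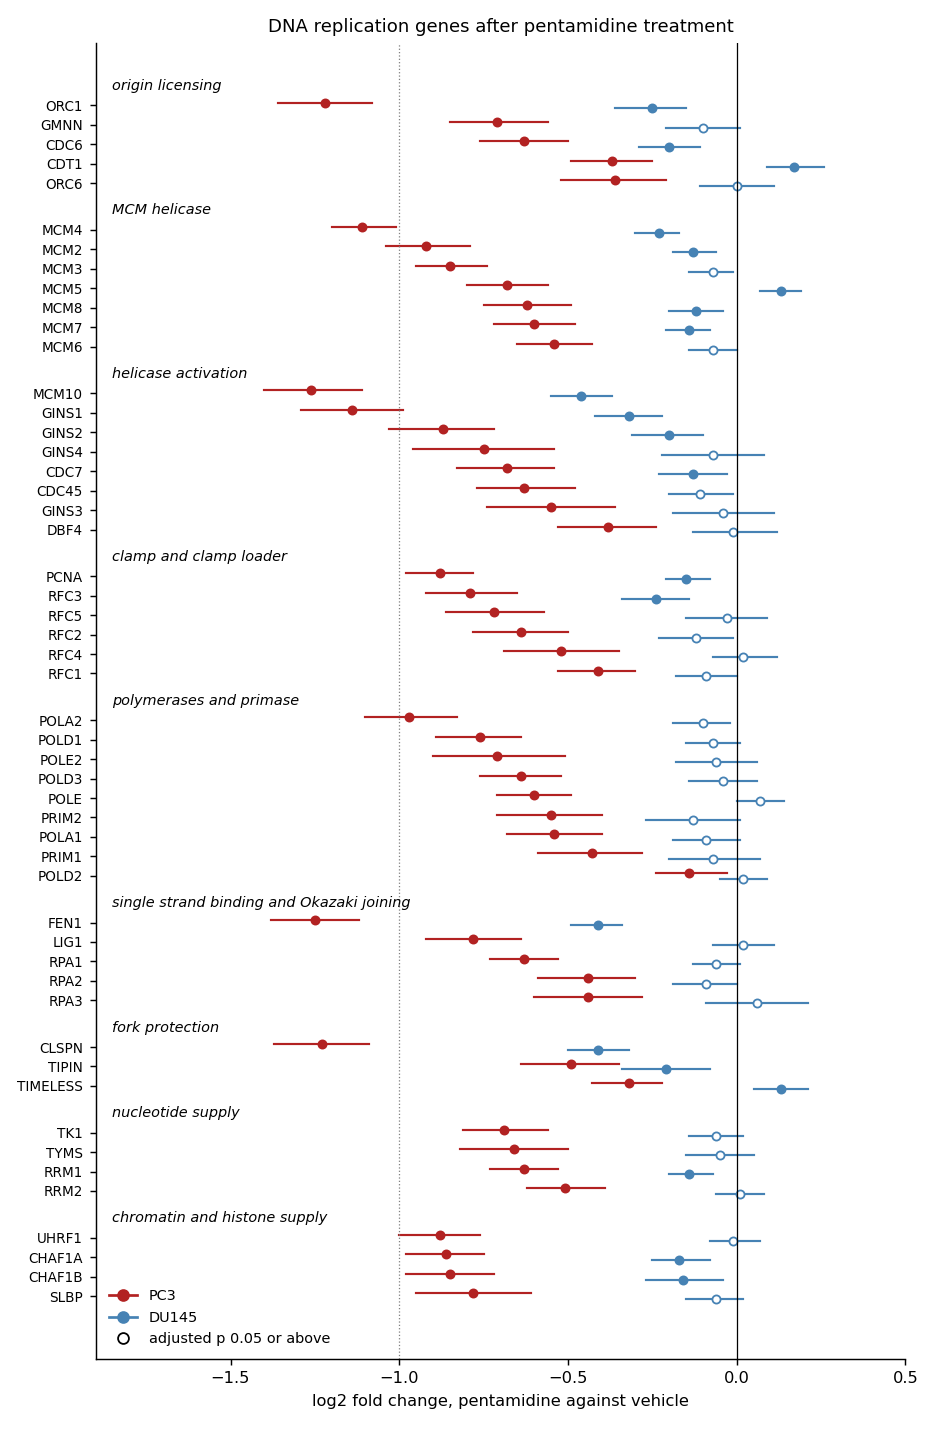
Log2 fold change (x axis, pentamidine against vehicle) of each of the 51 genes (y axis, grouped by role) in PC3 (red) and DU145 (blue), with 95% confidence intervals from edgeR and open points where the adjusted p was 0.05 or above; n = 3 samples per group. All red points are filled and left of 0, from -1.26 to -0.14, and the blue points lie from -0.46 to 0.17, 30 of them open.

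As a share of all counts, the 51 genes went from 0.713% ± 0.0074 (SD, n = 3) to 0.434% ± 0.0034 in PC3 and from 0.699% ± 0.0067 to 0.68% ± 0.004 in DU145. The median member of each PC3 sample, measured against the vehicle mean on the log2 scale, was -0.66, -0.69 and -0.64 in the 3 treated samples and between -0.028 and 0.034 in the vehicle samples. In DU145 it was -0.11, -0.083 and -0.11 in treated and between -0.017 and 0.01 in vehicle samples. Treated samples were thus below vehicle samples in both lines without overlap, and the gap was wider in PC3. The size of the DU145 gap depended on scaling. By library size alone, the median log2 fold change of the members was -0.038 in place of -0.09 in DU145, and -0.67 in place of -0.66 in PC3.

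**Figure D2:**
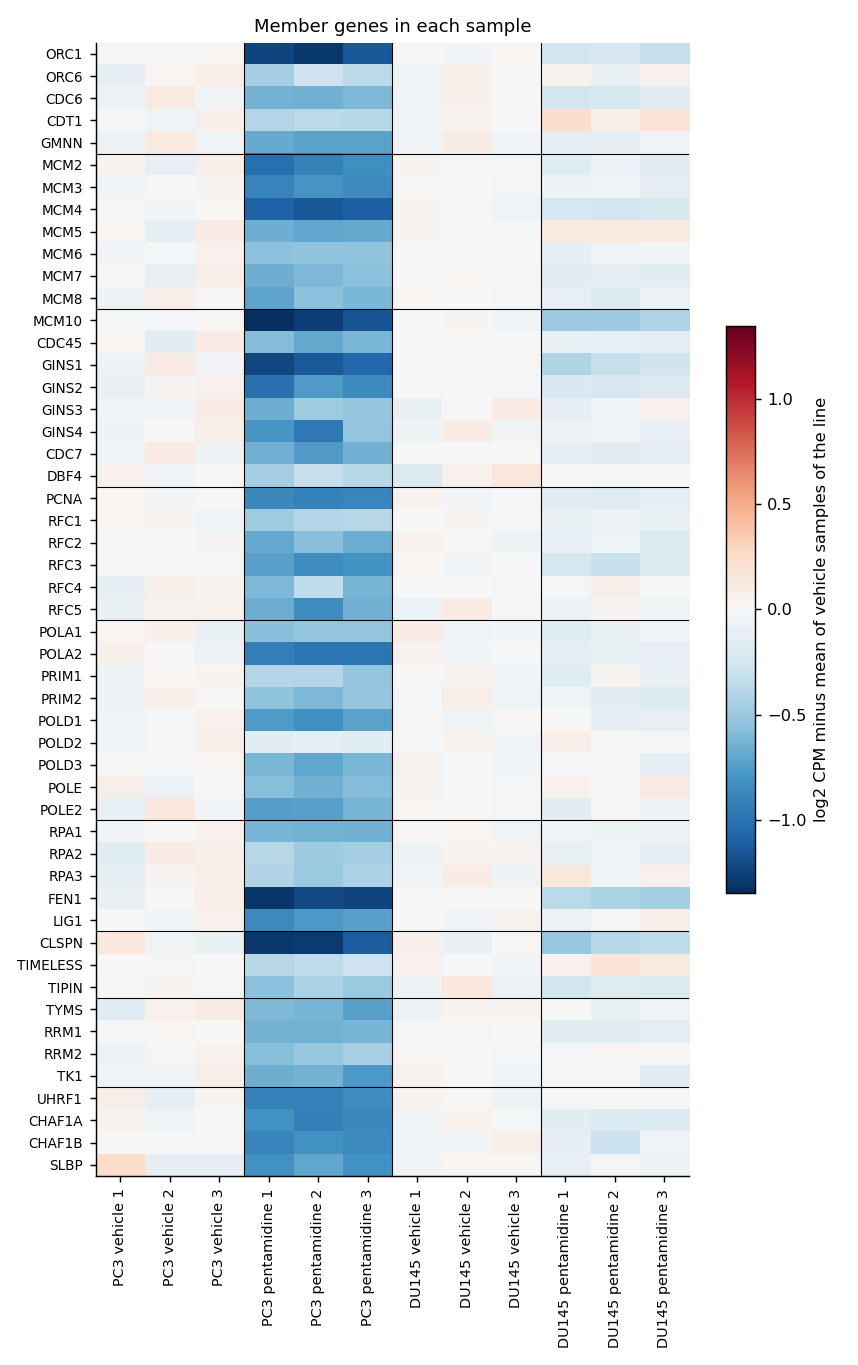
Log2 CPM of each member (rows, in order of role, roles divided by lines) in each of the 12 samples (columns) minus the mean of the 3 vehicle samples of the same line, in blue where lower and red where higher. The 3 PC3 pentamidine columns are blue throughout, with the POLD2 row the palest, while the DU145 pentamidine columns are mostly pale.

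Only genes that also changed by more than 1 on the log2 scale were called differentially expressed. In PC3 this held for 6 members, all lower (1.31% of genes tested were), namely ORC1, MCM4, MCM10, GINS1, FEN1 and CLSPN, and in DU145 for none. Their levels in each sample are given with the group each belongs to.

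For the licensing genes the median log2 fold change was -0.63 in PC3 and -0.10 in DU145. ORC1 (ENSG00000085840, chr1:52372829-52404459), the large ATP-binding subunit of the origin recognition complex, was at 76.5, 76.6 and 79.1 CPM in PC3 vehicle samples and at 32.8, 31.5 and 35.1 after pentamidine. In DU145 it was at 62.4, 59.8 and 62.5 CPM and then at 51.8, 52.9 and 49.6. The groups did not overlap in either line, and ORC1 fell by 1.22 ± 0.065 (SE) on the log2 scale in PC3 (adjusted p = 1.3e-10) and by 0.25 ± 0.054 in DU145 (adjusted p = 1.6e-04). CDC6, the ATPase that joins the complex, fell by 0.63 and 0.20. GMNN, the inhibitor of CDT1, fell by 0.71 in PC3, and its change of -0.10 in DU145 did not pass (95% interval -0.21 to 0.01). CDT1 itself went in opposite directions: from 101, 98.8 and 108 to 78.2, 80 and 78.9 CPM in PC3, a fall of 0.37 (adjusted p = 4.3e-05), and from 95.6, 102 and 99.1 to 116, 105 and 112 CPM in DU145, a rise of 0.17 (adjusted p = 0.00133). The interaction of treatment and line was 0.55 for CDT1 (adjusted p = 1.5e-06). ORC6, a further subunit of the complex, fell by 0.36 in PC3 and stood at 0.00 in DU145 (-0.11 to 0.11).

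In the MCM helicase group the medians were -0.68 and -0.12. MCM4 was counted at 424, 409 and 426 CPM in PC3 vehicle samples and at 198, 190 and 196 after pentamidine, and at 572, 565 and 537 and then 472, 465 and 483 CPM in DU145. All treated samples lay below all vehicle samples in each line, with a fall of 1.11 ± 0.047 in PC3 (adjusted p = 5.1e-12) and of 0.23 ± 0.031 in DU145 (adjusted p = 2.9e-08). MCM3, another subunit of the ring, went from 384, 393 and 402 to 211, 226 and 217 CPM in PC3, a fall of 0.85 ± 0.049 (adjusted p = 3.9e-10). In DU145 it went from 350, 349 and 343 to 331, 338 and 319 CPM, where the difference of -0.07 (95% interval -0.14 to -0.01) did not pass (adjusted p = 0.076) although the samples did not overlap. MCM5 rose in DU145 by 0.13 (adjusted p = 9.6e-04), from 408, 392 and 394 to 432, 435 and 434 CPM, and fell in PC3 by 0.68. MCM2, MCM7 and MCM8, the last of which belongs to a helicase of its own that serves recombination, fell in DU145 by 0.12 to 0.14 and in PC3 by 0.60 to 0.92, with limits on the DU145 calls. That of MCM8 was lost without DU145 pentamidine replicate 2, with all 12 samples in one fit and with library size alone, and that of MCM2 with library size alone. MCM6 fell by 0.54 in PC3 and was at -0.07 (-0.14 to 0.00) in DU145.

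The 6 ring subunits act in equal number. Per kb of the union of annotated exons, MCM3 was the highest of the 6 in each group. It stood at 108 CPM per kb in PC3 vehicle and 95.2 in DU145 vehicle samples, and MCM5 was the lowest there, at 36.9 and 54.3. The union was 3650 bases for MCM3 and 7338 for MCM5 and may exceed the mRNA present, so these values do not rank the mRNAs. Without division by length, the mean in PC3 vehicle samples was 271 CPM for MCM5 and 169 for MCM6. The ratio of highest to lowest was 2.92 in PC3 vehicle, 2.6 in PC3 pentamidine, 1.75 in DU145 vehicle and 1.63 in DU145 pentamidine samples, MCM6 being the lowest in the last group at 55.3 CPM per kb.

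Among the helicase activation genes the medians were -0.72 and -0.12. MCM10 (ENSG00000065328, chr10:13161554-13211104), which helps the helicase to start and binds polymerase alpha, was among the members that fell most in both lines. It went from 74.1, 73.1 and 75.5 to 29.1, 30.8 and 33 CPM in PC3 and from 97.4, 101 and 95.6 to 69.1, 69.9 and 73.8 in DU145. The groups lay apart in each line, and the falls were 1.26 ± 0.067 (adjusted p = 1.3e-10) and 0.46 ± 0.046 (adjusted p = 8.2e-12). In PC3 its order against FEN1 and CLSPN was within the error and turned when single samples were left out: without PC3 vehicle replicate 1, FEN1 was at -1.31 and MCM10 at -1.26, and without PC3 vehicle replicate 3, CLSPN was at -1.28 and MCM10 at -1.24. GINS1 (ENSG00000101003, chr20:25407727-25452628), a subunit of the GINS complex, went from 73.9, 83.3 and 75.4 to 33.1, 35.3 and 37.2 CPM in PC3, a fall of 1.14 ± 0.071 (adjusted p = 1.1e-09). In DU145 it went from 85, 83.8 and 85.7 to 64.3, 68.3 and 70.4 CPM, a fall of 0.32 ± 0.048 (adjusted p = 3.4e-07). The 4 GINS subunits differed among themselves: GINS2 fell by 0.87 and 0.20, while GINS3 and GINS4 fell by 0.55 and 0.75 in PC3 and were at -0.04 (-0.19 to 0.11) and -0.07 (-0.22 to 0.08) in DU145. CDC45, the third partner of the helicase, fell by 0.63 in PC3 and was at -0.11 (-0.20 to -0.01, adjusted p = 0.0705) in DU145. The kinase gene CDC7 fell by 0.68 and 0.13, its DU145 call being lost when any 1 of the 6 DU145 samples was left out and with DESeq2, all 12 samples in one fit, library size alone, no filter or the replicate block. Its activator DBF4 fell by 0.38 in PC3 and was at -0.01 (-0.13 to 0.12) in DU145.

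For the clamp and clamp loader the medians were -0.68 and -0.10. PCNA, the ring that holds polymerases on DNA, was the most abundant member per length in PC3 vehicle samples, at 291 CPM per kb. It went from 437, 416 and 433 to 235, 228 and 233 CPM in PC3 and from 386, 364 and 368 to 336, 330 and 340 CPM in DU145. Both differences exceeded the spread, with falls of 0.88 ± 0.046 (adjusted p = 9.5e-11) and 0.15 ± 0.032 (adjusted p = 2.3e-04). Of the 5 loader subunits, RFC3 passed in both lines. It went from 68.4, 68.7 and 66.4 to 40.9, 37.9 and 38.8 CPM in PC3, a fall of 0.79, and from 78.2, 74.8 and 76.8 to 64.9, 62.1 and 66.9 CPM in DU145, a fall of 0.24 (adjusted p = 9.9e-05). RFC1, RFC2, RFC4 and RFC5 fell by 0.41 to 0.72 in PC3 and did not pass in DU145, where they were between -0.12 and 0.02.

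All 9 genes of polymerases and primase fell in PC3, with a median of -0.60, and none passed in DU145, where the median was -0.07 and the values ran from -0.13 to 0.07. POLA2, the accessory subunit of polymerase alpha, went from 76, 72.6 and 68.6 to 37.8, 36.4 and 36.5 CPM in PC3, a fall of 0.97 ± 0.064 (adjusted p = 2.4e-09). In DU145 it went from 115, 109 and 110 to 103, 104 and 103 CPM, samples that did not overlap but whose difference of -0.10 (95% interval -0.19 to -0.02) stayed above the threshold (adjusted p = 0.0512). It passed in 4 of 14 other settings there. PRIM2, the large subunit of primase, went from 39.6, 43.5 and 41.4 to 28.4, 27.3 and 28.8 CPM in PC3, a fall of 0.55, and from 34.2, 36.9 and 33.4 to 33.5, 31.2 and 30.6 CPM in DU145, where the groups overlapped (-0.13, 95% interval -0.27 to 0.01). POLA1, POLD1 and POLE, the catalytic subunits of polymerases alpha, delta and epsilon, fell in PC3 by 0.54, 0.76 and 0.60. The accessory subunits POLD3 and POLE2 fell there by 0.64 and 0.71, and the primase subunit PRIM1 by 0.43. POLD2, an accessory subunit of polymerase delta, stood apart in PC3 with 274, 277 and 299 CPM before and 256, 261 and 254 CPM after treatment. The samples did not overlap, but the fall was only 0.14 ± 0.05 (adjusted p = 0.0357), and the call was lost without PC3 vehicle replicate 3 or without any 1 of the 3 PC3 pentamidine samples.

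The single strand binding and Okazaki joining genes had medians of -0.63 and -0.06. FEN1 (ENSG00000168496, chr11:61792637-61797244), the nuclease that trims Okazaki fragment flaps, went from 130, 140 and 148 to 56, 59.8 and 58.8 CPM in PC3 and from 207, 207 and 206 to 160, 153 and 150 CPM in DU145. It fell by 1.25 ± 0.063 (adjusted p = 5.2e-11) and by 0.41 ± 0.037 (adjusted p = 1.0e-13), without overlap in either line. LIG1, the ligase that seals the fragments, fell by 0.78 in PC3 and was at 0.02 (-0.07 to 0.11) in DU145. RPA1, RPA2 and RPA3, which together coat single-stranded DNA, fell by 0.63, 0.44 and 0.44 in PC3 and were at -0.06, -0.09 and 0.06 in DU145 without passing.

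The 3 fork protection genes differed most among themselves. CLSPN (ENSG00000092853, chr1:35720218-35769967) codes for claspin, the adaptor through which stalled forks activate the checkpoint kinase CHK1. It went from 189, 167 and 161 to 69.9, 70.4 and 79 CPM in PC3, a fall of 1.23 ± 0.066 (adjusted p = 1.3e-10), and from 135, 122 and 131 to 91, 98.8 and 102 CPM in DU145, a fall of 0.41 ± 0.045 (adjusted p = 1.1e-10). The groups were apart in both lines. TIPIN, which steadies the moving fork, fell by 0.49 and 0.21, the DU145 call being lost without DU145 vehicle replicate 2. TIMELESS, the partner of TIPIN, fell by 0.32 in PC3 but rose by 0.13 in DU145 (adjusted p = 0.00652), from 166, 158 and 156 to 166, 182 and 175 CPM, a call that was lost without DU145 vehicle replicate 3 or DU145 pentamidine replicate 2.

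The nucleotide supply genes had medians of -0.64 and -0.05. RRM1, the large subunit of ribonucleotide reductase, went from 237, 246 and 241 to 155, 156 and 156 CPM in PC3, a fall of 0.63 ± 0.048 (adjusted p = 1.4e-08). In DU145 it went from 264, 270 and 267 to 242, 241 and 244 CPM, a fall of 0.14 ± 0.033 (adjusted p = 9.4e-04), and it was the only member of this role to pass there. TK1, the thymidine salvage kinase, went from 132, 134 and 145 to 86.5, 88 and 79.8 CPM in PC3, a fall of 0.69, and from 155, 149 and 146 to 148, 149 and 134 CPM in DU145, where the difference of -0.06 (95% interval -0.14 to 0.02) did not pass. RRM2, the small subunit of the reductase, fell by 0.51 in PC3 and was at 0.01 (-0.06 to 0.08) in DU145. TYMS, which makes thymidylate, fell by 0.66 in PC3 and was at -0.05 (-0.15 to 0.05) in DU145. Its exons share 39.1% of their bases with ENOSF1 on the opposite strand, a gene that rose in both lines (0.34 and 0.27), and whether counting used the strand is not given in the sources used here, so the TYMS values are uncertain. Annotated overlaps also exist for POLA2 (35.1% of its exon bases, with AP000944.2), MCM2 (22.7%, with AC023593.1), GINS4 (21.2%, with AC009630.2), TIPIN (21%, with RPL9P25), RRM2 (20.2%, with AC007240.1), PRIM1 (14.9%, with AC117378.1), GINS3 (10.9%, with AC009118.2), MCM7 (8.94%, with AP4M1) and POLD1 (8.64%, with AC020909.1).

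The chromatin and histone genes fell by 0.78 to 0.88 in PC3, the narrowest range of any role, with medians of -0.86 in PC3 and -0.11 in DU145. UHRF1, which reads hemimethylated DNA behind the fork, went from 277, 241 and 268 to 139, 139 and 146 CPM in PC3, a fall of 0.88 ± 0.056 (adjusted p = 1.2e-09). In DU145 it went from 233, 228 and 214 to 220, 228 and 222 CPM, overlapping groups with a difference of -0.01 (95% interval -0.08 to 0.07). CHAF1A, the large subunit of the histone chaperone CAF-1, went from 128, 118 and 125 to 70.1, 65.4 and 67.5 CPM in PC3 and from 105, 111 and 107 to 97.5, 94.8 and 95.3 CPM in DU145. It fell by 0.86 ± 0.056 (adjusted p = 1.7e-09) and by 0.17 ± 0.043 (adjusted p = 0.00157). CHAF1B, its partner subunit, fell by 0.85 and 0.16, a DU145 call that was lost without DU145 vehicle replicate 3 or DU145 pentamidine replicate 2, with DESeq2, with all 12 samples in one fit and with library size alone, and SLBP, which binds histone mRNA, fell by 0.78 in PC3 and was at -0.06 (-0.15 to 0.02) in DU145.

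**Figure D3:**
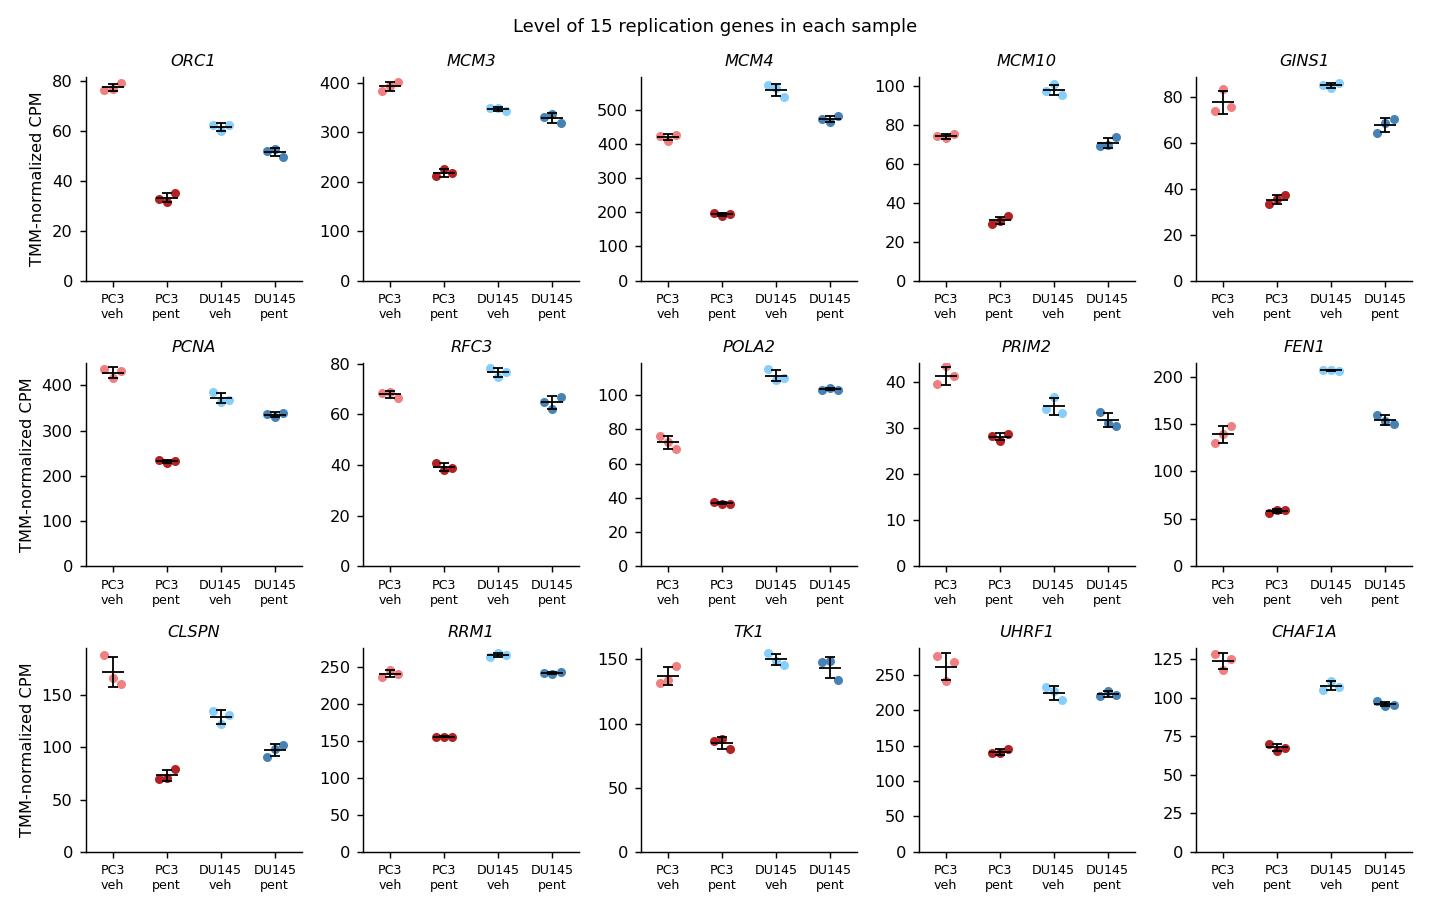
TMM-normalized CPM (y axis, from 0) of the 15 members selected for their size of change or their interaction p. Points are the samples of the 4 groups (x axis, veh for vehicle and pent for pentamidine), with the mean and SD (n = 3) in black. In PC3 the treated points lie below the vehicle points in all 15 panels, while the DU145 points of PRIM2, TK1 and UHRF1 overlap.

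Whether the response differed between the lines was tested by the interaction of treatment and line over all 12 samples. The log2 fold change was higher in DU145, that is less negative or above 0, for 50 of 51 members at an adjusted p below 0.05, against 10.3% of 15226 genes tested. The median difference of the members was 0.60 and that of all genes tested 0.01. The difference was largest for ORC1 (0.96 ± 0.081, adjusted p = 8.8e-10), UHRF1 (0.88 ± 0.069, adjusted p = 2.1e-10) and MCM4 (0.87 ± 0.055, adjusted p = 2.5e-12). POLD2 was the member that did not pass, with a difference of 0.16 (95% interval 0.03 to 0.28, adjusted p = 0.0672). Role medians of the difference ran from 0.45 for fork protection to 0.77 for the MCM helicase.

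The order of the members resembled each other in the lines even though the sizes did not. Over the 51 genes, which share libraries within a line, Pearson's r of the log2 fold changes was 0.74 and Spearman's rho 0.61, given as a description. Of the 10 members with the largest falls in each line, 6 (60%) were shared, and these were the 6 called differentially expressed in PC3. MCM2, PCNA, POLA2 and UHRF1 completed the list in PC3, and CDC6, GINS2, RFC3 and TIPIN that in DU145.

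**Figure D4:**
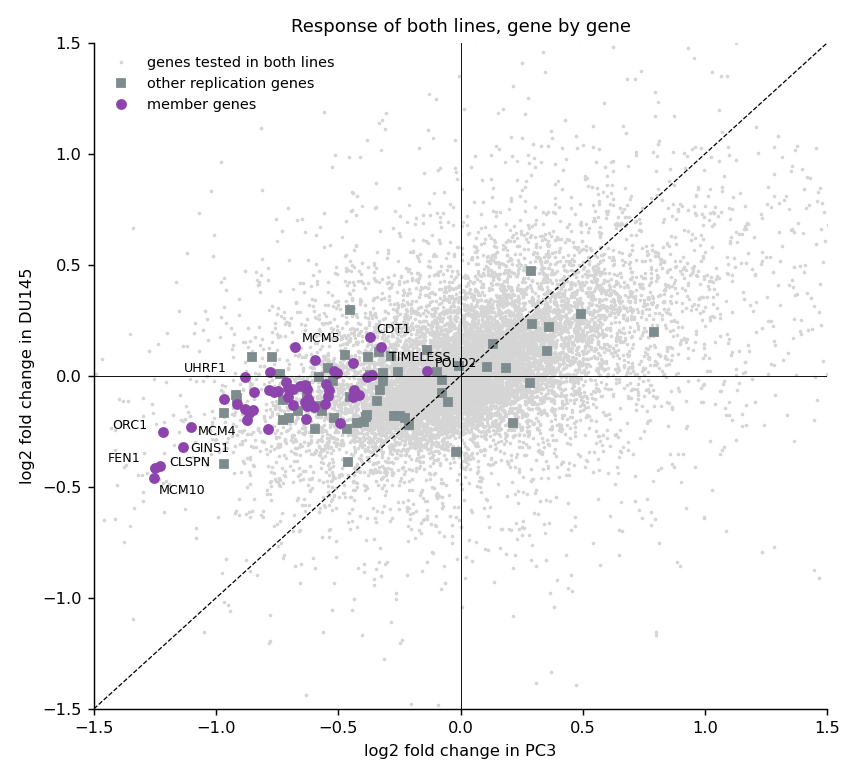
Log2 fold change in PC3 (x axis) against that in DU145 (y axis) for the 51 members (purple), 60 other replication genes (grey squares) and all genes tested in both lines (light grey, within the axis limits), with the line of equal change dashed. All 51 members lie left of 0 and above the dashed line, and MCM10, FEN1 and CLSPN are the lowest members on both axes.

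Starting levels differed in both directions. Between vehicle samples, 16 members were higher in DU145 (33.8% of 14394 genes tested were) and 21 lower (31.5%), with a median log2 difference, DU145 against PC3, of -0.03. Over the alternatives, 11 to 16 were higher and 19 to 25 lower, with library size alone giving 11 and 25. The MCM helicase genes were mostly higher in DU145, 5 of 7, with MCM2 at 0.60 and MCM5 at 0.58. LIG1 (0.82), POLD1 (0.76) and POLE2 (0.69) were the highest members relative to PC3, and RFC5 (-0.72) and RPA3 (-0.63) the lowest. All 4 chromatin and histone genes were lower in DU145, by 0.17 to 0.24. These vehicle samples also enter the treatment comparisons of their line.

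A list of 60 further replication genes showed the same contrast less fully. In PC3, 41 fell, 7 rose and 12 did not pass, with a median of -0.38, and in DU145 22 fell, 7 rose and 31 did not pass, with a median of -0.06. The interaction was above 0 at an adjusted p below 0.05 for 34 and below 0 for 4. Of all genes tested, 21.7% fell in PC3 and 3003 of 13861 rose, and in DU145 16.8% fell and 17.2% rose. For the interaction, 10.3% of all genes tested were above 0 and 1546 of 15226 below. CDC25A, the phosphatase that activates CDK2, went from 38.5, 35.4 and 38.3 to 19.7, 18.7 and 18.7 CPM in PC3, a fall of 0.97, and fell by 0.40 in DU145. ATAD5, which unloads PCNA, fell by 0.97 in PC3, RECQL4, a helicase of origin firing, by 0.92, and CHTF18, of an alternative clamp loader, by 0.85. In DU145 these 3 were between -0.17 and 0.09 and did not pass. TK2, the mitochondrial thymidine kinase, rose in PC3 by 0.79 (adjusted p = 6.0e-06), from 12.9, 11.3 and 11.9 to 19.8, 20.5 and 21.8 CPM, in contrast to the fall of TK1, its counterpart in the cytosol. Of the 24 genes of nucleotide synthesis and salvage on this list, 15 fell and 5 rose in PC3. In DU145 11 of them fell and 4 rose, with a median of -0.11. The share that rose was in each line no larger than among all genes tested, as for the whole list.

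**Figure D5:**
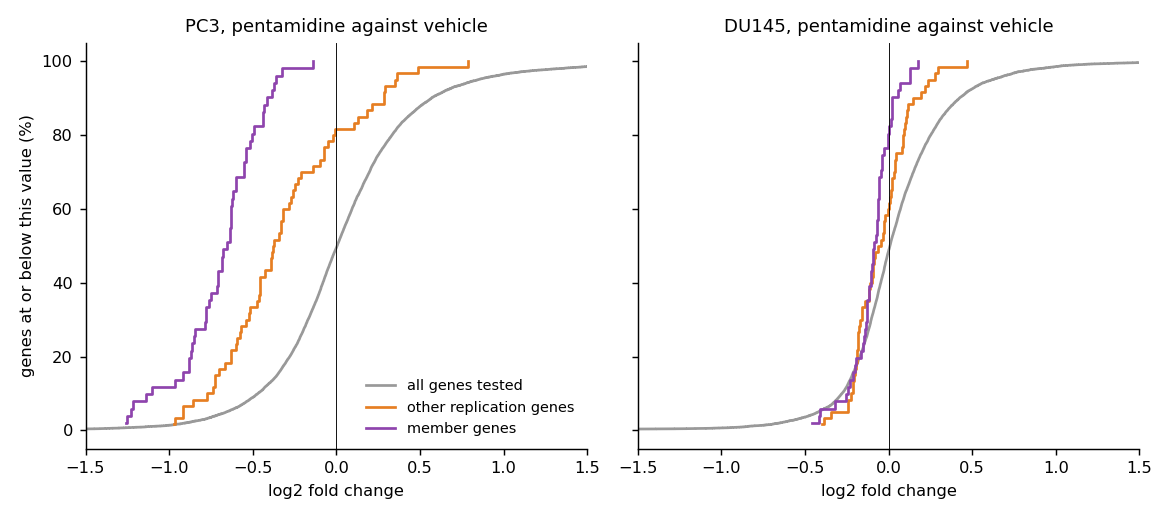
Cumulative share of genes (y axis, percent) at or below each log2 fold change (x axis) for the 51 members (purple), 60 other replication genes (orange) and all genes tested (grey), in PC3 (left) and DU145 (right). In PC3 the purple curve is complete before 0, with its median at -0.66 against 0.0046 for all genes, whereas in DU145 it starts near the grey curve and reaches its end at 0.17, with its median at -0.09 against 0.01.

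The size of the fall in PC3 overlapped widely between members with and without an E2F word. The 23 with a match had a median of -0.71 (range -1.23 to -0.37) and the 22 without a median of -0.63 (range -1.26 to -0.14). The 6 members with 2 or more matches had a median of -0.64. In DU145 the medians were -0.10 and -0.07. Among the 6 genes with the largest falls in PC3, GINS1 and CLSPN held 1 match each, and ORC1, MCM10 and FEN1 held none of these words in their windows.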

How the data were processed

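Raw read counts per gene, not normalized, were deposited by the authors for 12 samples whose groups and replicate numbers were taken from the labels. The submitters' processing notes name HISAT2 2.1.0 and DESeq 1.18.1 and the build GRCh38. The counting program, annotation and use of strand are not given in the sources used here. A deposited table named for FPKM holds CPM and was not used, nor were the authors' own fold changes and p-values. The 33595 entries with an Ensembl identifier gave 32077 genes after identical entries of a name were merged.

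Counts were fitted with edgeR 4.0.16 in R 4.3.3 (quasi-likelihood test, TMM, filterByExpr with a minimum count of 10), for each line on its own 6 samples, for the interaction on all 12 and for starting levels on the 6 vehicle samples. P-values were adjusted by Benjamini-Hochberg over all genes tested. Changed means an adjusted p below 0.05, and differentially expressed also an absolute log2 fold change above 1. CPM were computed from the counts and TMM-scaled library sizes, and lengths are unions of exons in GENCODE release 29. The fits were tested on simulated data with the same added spread for every gene. Changes planted there within a line were larger than that of any member in DU145, so calls of that size were not tested.

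The members and lists were chosen with earlier results of these data known. Values in every sample are given, per role, for the members with the largest change in PC3 and in DU145, for those differentially expressed and for the 4 with the smallest interaction p. CDT1, MCM5, TIMELESS and POLD2 were added after their values were seen, because they rose or changed least. Of the other replication genes, the 6 with the largest change in PC3 were to be named, and a few items are not reported here. Replicates of a group differed by more than sampling noise, so each was counted once. Replicate numbers did not pair samples. Alternatives were DESeq2 1.42.0, RLE, library size alone, TMM without mitochondria-encoded genes, no filter, a minimum of 10 counts in each sample, the replicate number as a block, all 12 samples in one fit, adjusted p alone, an adjusted p below 0.01, and each sample left out in turn.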

Additional observations from a re-analysis of the deposited data

Results flagged for a closer look

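The treatment effect differed between the lines, by the interaction term of edgeR's quasi-likelihood test, for each of 15 members selected for their size of change or their interaction p. That choice favours members that pass. Of all 51 members 50 passed, POLD2 being the exception. The log2 fold change in DU145 minus that in PC3 was 0.96 for ORC1, 0.77 for MCM3, 0.87 for MCM4, 0.80 for MCM10, 0.82 for GINS1, 0.73 for PCNA, 0.55 for RFC3, 0.86 for POLA2 and 0.42 for PRIM2. It was 0.84 for FEN1, 0.82 for CLSPN, 0.49 for RRM1, 0.63 for TK1, 0.88 for UHRF1 and 0.70 for CHAF1A. Adjusted p-values ran from 2.5e-12 for MCM4 to 0.00217 for PRIM2. Groups of 3 samples are too small to test for a single sample that stands apart.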

How the results depend on the processing

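In PC3 the number of lower members was 50 or 51 and their median -0.68 to -0.63 under every alternative run, with or without a sample left out, and POLD2 was the member lost. In DU145 14 to 19 members were lower and 2 to 4 higher. By the adjusted p alone, without the fold threshold, 51 members were called in PC3 in place of 6 and 21 in DU145 in place of 0. When single samples were left out, the DU145 median ran from -0.099 to -0.071, that of the interaction from 0.57 to 0.61 with 49 to 51 members higher, and that of the vehicle comparison from -0.064 to -0.0054. The DU145 median moved by more than the spread without DU145 vehicle replicate 2 (-0.071), and that of the vehicle comparison without PC3 vehicle replicate 2 (-0.064).

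Scaling by library size alone gave a DU145 median of -0.038, an interaction median of 0.66 and a vehicle median of -0.11, and raised the share of higher genes among all changed genes in DU145 from 50.6% to 66.6% and in the interaction from 50.3% to 66.8%. The DU145 value of UHRF1, which did not pass, changed sign in 4 settings: 0.044 by library size alone, and between -0.042 and 0.014 with each sample left out (above 0 without DU145 vehicle replicate 1 or 2 or pentamidine replicate 1). The causes were not tested.

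Samples with the same replicate number did not deviate together (correlations of deviations -0.315 to 0.0493), so the numbers name samples only. With the replicate block, 50 members were lower in PC3 (median -0.65), 17 lower and 3 higher in DU145 (median -0.088), and 50 higher in the interaction. Depth left no member untested.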

Other observations

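Ratios between partner genes moved in both lines. The log2 ratio of CDT1 to GMNN counts went from 0.55 ± 0.16 (SD, n = 3) to 0.88 ± 0.035 in PC3 and from 0.65 ± 0.054 to 0.93 ± 0.078 in DU145, with all treated samples above all vehicle samples. That of MCM5 to MCM4, subunits of 1 ring, went from -0.64 ± 0.084 to -0.21 ± 0.011 in PC3 and from -0.49 ± 0.041 to -0.13 ± 0.028 in DU145, again without overlap. That of RRM2 to RRM1, the small and large subunits of ribonucleotide reductase, went from -0.46 ± 0.056 to -0.34 ± 0.056 in PC3 and from -0.54 ± 0.032 to -0.39 ± 0.019 in DU145. These ratios were chosen after the values were seen and were not tested, and 3 samples against 3 cannot give an exact permutation p below 0.10.

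RRM2B, which codes for a ribonucleotide reductase subunit induced by p53, went in opposite directions in the lines, with a rise of 0.22 in PC3 (adjusted p = 0.0264, edgeR) and a fall of 0.21 in DU145 (adjusted p = 0.00351), and an interaction of -0.43 (adjusted p = 0.00263). SAMHD1, which breaks down deoxynucleotides, fell by 0.46 in PC3 and by 0.39 in DU145, with a difference of 0.07 (95% interval -0.07 to 0.21). Both genes were named after their values were seen.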
